A study of Mus musculus with 20 samples.

Results

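Onecut1, Onecut2 and Onecut3 encode transcription factors with a cut domain and a homeodomain, and Tfap2a and Tfap2b encode AP-2 factors. These 5 genes were taken by symbol, as 5 of the 37994 gene rows of the developmental series and 5 of the 36104 rows of a second set of plates. The members were chosen by their levels over the stages, which were already known to be high in the youngest samples, so their levels by stage and the sharing of wells between the families are given as a description, with no test. The mouse habenula, a paired nucleus of the dorsal diencephalon, was sampled by single-cell RNA sequencing in wells of 384-well plates with the CEL-seq2 chemistry, which tags each transcript with a unique molecular identifier (UMI). The series has 15 plates from the Brn3a-tauLacZ line, which carries a lacZ reporter named for Brn3a, the older name of Pou4f1: 2 plates each at E11, E13, E15, E18, P4, P7 and in the adult, and 1 plate at E12. The second set has 5 plates from C57BL/6 mice at E18: 2 of left habenula, 2 of right habenula and 1 of both sides together, whose title gives E1 while its other labels give E18. The labels used here do not give the sex, the genotype at the reporter locus or the gate of any cell sort. The plate is the replicate. Nothing says that plates came from separate animals, so p-values measure the spread between plates, which may be technical. Sequencing runs held 5 plates each, and which plates ran together is not given, so the run of a plate and its stage cannot be told apart.

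Onecut factors are known from liver, pancreas, retina and spinal cord, where they act in the specification and early differentiation of several cell types, retinal horizontal cells and motor neurons among them. AP-2 factors bind GC-rich sites as dimers and are best known for their roles in neural crest, face and skin. Both families are also expressed in sets of young neurons, and Pou4f1 is the factor most widely used to mark habenular neurons.

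A window before a RefSeq start is shown for 1 gene of each family. No window is given for Onecut2, the Onecut gene with the highest level at E11, or for Onecut3. The windows hold 250 bases before a start of the gene in RefSeq on GRCm38.p6, with the letters CANNTG, the E-box to which basic helix-loop-helix factors can bind, in capitals. The window of Tfap2b is chr1:19211804-19212053 and that of Onecut1 is chr9:74861671-74861920. The RefSeq start used for Tfap2b lies inside the GENCODE gene given below, so its window is not upstream of that whole locus.
Tfap2b: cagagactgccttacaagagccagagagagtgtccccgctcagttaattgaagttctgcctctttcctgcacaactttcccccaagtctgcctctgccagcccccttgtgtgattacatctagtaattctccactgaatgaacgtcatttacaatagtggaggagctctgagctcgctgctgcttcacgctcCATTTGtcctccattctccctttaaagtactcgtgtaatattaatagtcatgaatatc
Onecut1: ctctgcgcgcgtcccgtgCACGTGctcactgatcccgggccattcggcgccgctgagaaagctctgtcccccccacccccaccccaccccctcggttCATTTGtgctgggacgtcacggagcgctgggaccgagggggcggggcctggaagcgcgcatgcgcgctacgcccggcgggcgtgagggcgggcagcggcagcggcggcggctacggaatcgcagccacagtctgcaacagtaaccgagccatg
The Tfap2b window held 1 E-box, 58 bases before the start, and the Onecut1 window held 2, at 232 and 153 bases before it. Their GC content was 46.4% and 71.6%. Neither the letters ATTGAT, read by cut-homeodomain factors, nor GCCNNNGGC, read by AP-2 factors, occurred on either strand of these windows or of the 2 windows of Tfap2a, which held 0 E-boxes. Of all 32851 such windows, 6.72% held ATTGAT, 13.7% held GCCNNNGGC and 66.2% held an E-box. These are matches of letters, not sites.

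After wells with few counts or many mitochondrial counts were left out, 3729 of 5756 wells of the series and 1082 of 1920 of the second set were kept, with 758697 to 7760372 counts per plate. The label of early neurons was checked against marker lists. At E11 and E12 the 10 neuron genes (Tubb3, Stmn2, Gap43 and others) summed to 12829 to 15939 counts per 1e+06 counts (CPM), the 10 progenitor genes to 815 to 930 and the 10 habenula neuron genes to 2518 to 2926, with all 10 genes of each list present. The 8 genes of the thalamic neuron list, all present too, summed to 4713 to 5336 CPM, more than the habenula list. The 10 neural crest and surface ectoderm genes, the cells best known for Tfap2, summed to 12.5 to 44.9 CPM there, with 6 to 8 of the 10 present, and the sensory ganglion genes to 34.2 to 62.4 CPM. Pou4f1 was found in 88.1% to 92.2% of the E11 and E12 wells. Some plates stood apart. The E13 plates had Pou4f1 in 71.2% and 51.1% of wells, with summed progenitor genes of 1172 and 2074 CPM. E18 plate 1 of the series had Pou4f1 in 28.1% of wells and 3842 CPM of progenitor genes, where E18 plate 2 had 85.5% and 220 CPM. Adult plate 1 kept 56 wells and left plate 2 of the second set kept 54. In sums over a plate, fewer cells of a type and less RNA per cell cannot be told apart, and the part of these differences in the levels below was not tested.

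Onecut2 (chromosome 18, 64340020 to 64400987, plus strand, GENCODE M21 on GRCm38 here and below) was at 2909 and 2950 CPM on the E11 plates, at 1432 CPM on the E12 plate, at 632.5 and 412.5 CPM at E13, at 292.5 and 162.7 CPM at E15 and at 206.5 and 158.3 CPM at E18. It was at 28.7 CPM on both P4 plates, at 14.6 and 16.7 CPM at P7 and at 37.0 and 3.18 CPM in the adult. Each stage from E11 to E15 lay below the one before without overlap, E15 and E18 overlapped, and the adult plates overlapped both P4 and P7. The mean at E11 was 2930 ± 29.3 CPM (SD, n = 2), which was 5.61 times that at E13 and 102 times that at P4. Nearly every early well held it: 98.1% and 96.5% at E11, 95.2% at E12, 78.4% and 65.7% at E13, and 2.92% to 12.5% in the adult. Wells thinned to 4000 UMIs held a mean of 11.6 Onecut2 UMIs where the gene was seen on E11 plate 1.

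Onecut3 (chromosome 10, 80494835 to 80517276, plus strand) was at 422 and 369 CPM at E11 and at 231 CPM at E12. The E13 plates then parted, at 43.8 CPM in plate 1 and 3.19 CPM in plate 2, which holds more progenitor counts. Later plates of the series had 0.460 to 9.52 CPM, apart from adult plate 1 at 29.0 CPM from 22 counts and adult plate 2 at 0. The E13 range therefore overlapped every later stage but P4. The mean at E11 was 396 ± 37.8 CPM (SD, n = 2), or 16.9 times that at E13. Its share of wells went from 80.6% and 75.4% at E11 and 64.3% at E12 to 20.9% and 3.65% at E13.

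Onecut1 (chromosome 9, 74861921 to 74891781, plus strand), the hepatocyte nuclear factor gene of the family, was at 200.3 and 212.8 CPM at E11 and 151.3 CPM at E12. It was present on every later plate without a clear order of stages: 59.1 and 36.1 CPM at E13, 29.9 and 63.9 CPM at E15, 22.7 and 153.8 CPM at E18, 23.9 and 9.05 CPM at P4, 37.9 and 40.1 CPM at P7, and 40.9 and 10.5 CPM in the adult. From E13 on the ranges of the stages overlap in a chain, in which only P4 lies below E13, E15 and P7 without overlap. E18 plate 2 reached the E12 level, and there 49.1% of wells held Onecut1, against 12.4% of wells of E18 plate 1. The mean at E11 was 207 ± 8.86 CPM (SD, n = 2), 4.34 times that at E13 and 12.5 times that at P4. Its counts are uncertain in 1 respect: the last exon of the lincRNA gene Gm20649 lies within the last exon of Onecut1 on the same strand, Gm20649 received 90.1% as many counts as Onecut1 over the series, and 1110 of the 1178 Onecut1 wells held both. Of the Onecut1 counts at E11 and E12, 40.9% were unspliced, against 4.81% for Onecut2 and 17.9% for Onecut3. The Onecut1 share was larger later, at 58.1% and 67.8% on the P4 plates and 61.5% and 69.7% on the P7 plates. Onecut2 had 11.5% to 20.0% on these 4 plates.

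**Figure D1:**
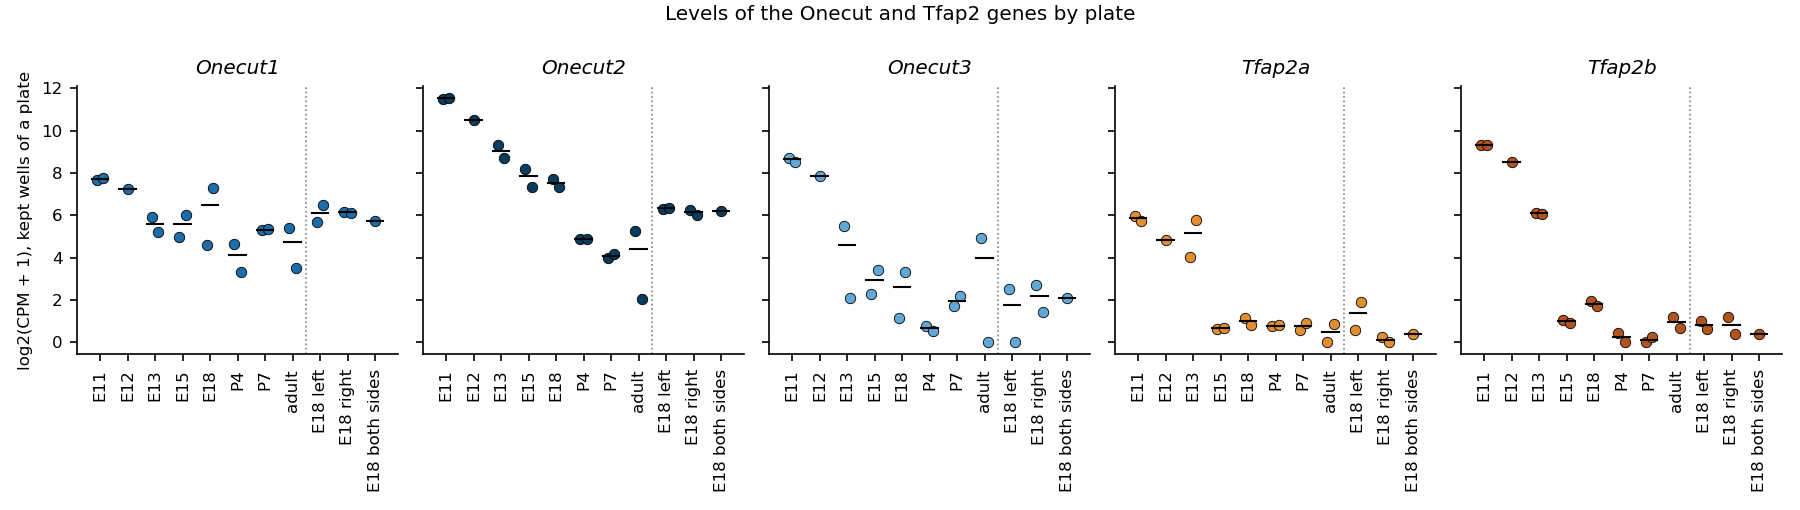
Level of each gene on each plate, as log2(CPM + 1) over the kept wells of the plate; points are plates, black lines are group means, and the dotted line divides the series from the second set at E18. Every gene has its highest stage mean at E11, the Tfap2 genes lie near 0 from E15 on, and Onecut1 and Onecut2 remain detectable on all 20 plates.

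Tfap2b (chromosome 1, 19208914 to 19238576, plus strand) was at 640 and 638 CPM at E11, at 366 CPM at E12 and at 68.3 and 66.0 CPM at E13. From E15 on it was at most 2.79 CPM on any plate of the series, 22 counts in 20 wells in all. The 4 levels E11, E12, E13 and later did not overlap. The mean at E11 was 639 ± 1.74 CPM (SD, n = 2), or 9.51 times the 67.2 ± 1.67 CPM at E13. Tfap2b was in 54.0% and 50.1% of wells at E11, 40.5% at E12, and 13.1% and 14.6% at E13. Where it was seen on E11 plate 1, thinned wells held a mean of 7.35 of its UMIs.

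Tfap2a (chromosome 13, 40715302 to 40738376, minus strand) was at 61.7 and 52.3 CPM at E11 and 27.2 CPM at E12. At E13 it was at 15.3 CPM in plate 1 and at 53.6 CPM in plate 2, so E13 overlapped E11 and E12, while Tfap2b was alike on both E13 plates. On the plates of the series from E15 on it was at most 1.20 CPM, 29 counts in 21 wells, and in the second set at most 2.70 CPM, 11 counts. It was found in 28.2% and 23.5% of wells at E11, 13.1% at E12, and 9.15% and 35.0% at E13. The antisense gene Gm26688 at this locus had 25, 27 and 7 counts on the E11 and E12 plates, against 319, 256 and 129 for Tfap2a. In the 2494 kept wells of the series from E15 on, 41 held a count of either Tfap2 gene (1.64%) and none held more than 3 of one. On left plate 2 of the second set 1 well held 4 counts of Tfap2a. Median depth per plate was 5058 to 23108 counts in these wells and 12010 to 15685 at E11 and E12. This late share comes from plates with a low level of both Tfap2 genes. The share of stray counts on the E11 and E12 plates was not measured.

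All 5 genes had their highest stage mean at E11. Of the 17453 genes tested over the stages 9.97% did, a share given only for scale, since the 5 were picked for that pattern. The ratio of the E11 mean to the E13 mean ran from 1.65 for Tfap2a to 16.9 for Onecut3. Both ends depend on E13 plates 1 and 2, which parted at 15.3 and 53.6 CPM for Tfap2a and 43.8 and 3.19 CPM for Onecut3. The genes most like each member over the 15 plates, by Pearson's r of log2(CPM + 1), were Gm20649 (1.00) and Gm16551 (0.94) for Onecut1, Dpp3 (0.98) and Epb41l4a (0.97) for Onecut2, E130006D01Rik (0.94) and Mab21l2 (0.94) for Onecut3, Tfap2b (0.96) and Esyt1 (0.95) for Tfap2a, and Esyt1 (0.96) and Tfap2a (0.96) for Tfap2b. These plates share their stage structure, so the values describe likeness of course over stages and nothing more.

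The relatives of both families were followed in genes outside the 5, with edgeR's quasi-likelihood test and Benjamini-Hochberg adjustment. From E11 to P4, 4244 of 17453 genes (24.3%) had an adjusted p under 0.05, of which 2302 were higher and 1942 lower at P4. Of the 7 tested among 9 other Tfap2 genes and AP-2 partner proteins, 0 were higher and 2 lower. Tfap2d, the AP-2 delta gene, lies on chromosome 1 from 19103022 to 19166346 and had 88.3 and 97.0 CPM at E11 against 0.509 and 1.69 CPM at P4, a log2 change of -6.26 ± 0.69 (SE, adjusted p = 0.000181). Kctd1, a repressor of AP-2 activity, fell by 1.00 on the log2 scale (adjusted p = 0.0067). Its call was lost without E11 plate 2 and without P4 plate 1. Among the 4 other cut-class genes, Cux2 fell from 143 and 136 to 50.5 and 45.2 CPM (-1.48 ± 0.20, adjusted p = 0.000599) and Cux1 rose from 143 and 125 to 212 and 201 CPM (0.69 ± 0.20, adjusted p = 0.0289). The Cux1 call was lost on leaving out any of the 4 plates.

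Of 8 tested factors that are studied together with Onecut in other neurons, 4 were lower at P4 and 2 higher, where the median over the list was -3.76 on the log2 scale and that over all genes was 0.02. Lhx1, a LIM homeobox factor, went from 28.6 and 28.0 to 1.36 and 0.613 CPM (adjusted p = 0.00214), and Lhx5 from 41 and 21 counts to 0 on both plates (adjusted p = 0.0225, lost without any of the 4 plates). Both are also in the inhibitory and pretectal list, where 4 of 8 were lower at P4 and 1 higher. In the midbrain tectum list 3 of 5 were lower and in the cranial sensory ganglion list 3 of 7, and the part of such cells in these values was not tested. The 3 ganglion calls (Pou4f2, Prph and Prrxl1) were all lost without E11 plate 2, that of Meis2 in the tectum list without any of the 4 plates and that of Barhl1 without either P4 plate. The orphan nuclear receptor gene Nr4a2 rose from 87.3 and 138 to 854 and 1046 CPM (log2 change 3.14 ± 0.81, adjusted p = 0.0168). Its call was lost without E11 plate 1, E11 plate 2 or P4 plate 2. Etv1 and Gng8 of the habenula neuron list rose as well, Etv1 from 9.47 and 7.97 to 1139 and 1470 CPM (adjusted p = 0.000164), and 0 of the 10 fell. The Gng8 call was lost on leaving out any of the 4 plates. In the general neuron list 3 of 10 fell and 0 rose. Its axon growth gene Gap43 went from 2795 and 2779 to 61.1 and 26.1 CPM (adjusted p = 0.000335). Of the progenitor genes, Nes and Pax6 were lower at P4 and 0 of 10 higher, with the Nes call lost without P4 plate 2 and the Pax6 call without any of the 4 plates. Genes of other lists passed as follows, where 24.3% of all genes did: 4 of 10 neurogenic intermediate genes were lower and 1 higher, 2 of 8 thalamic neuron genes lower and 1 higher, 1 of 5 tested neural crest genes higher and 1 of 10 vascular and mesenchymal genes lower, the last 2 shares below that of all genes. The part of such cells was not tested. Of these, Insm1 and Lhx2 (lower) and Neurod1 and Prox1 (higher) passed under every alternative run, whereas the calls of Neurod4, Dll1, Tcf7l2, Cdh5 and the crest gene Sox10 were each lost without 1 plate or another.

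Between E11 and E13, 253 of 17453 genes (1.45%) passed the test, 149 higher and 104 lower at E13. The number was 31 and 28 without E11 plates 1 and 2, 482 and 43 without E13 plates 1 and 2, and 932 by DESeq2. Of the relatives in both lists only Cux2 was among them, at 140 ± 5.00 CPM at E11 and 55.2 ± 2.24 CPM at E13 (SD, n = 2 each; log2 change -1.49 ± 0.21, adjusted p = 0.00716). Its call was lost without either E11 plate, without E13 plate 2 and with the wells of highest counts left out. Neither the neuron nor the progenitor list had a gene past the test, although their medians were -1.01 and 1.74 on the log2 scale against 0.02 over all genes. With no filter on low counts Stmn2 and Tubb3 were called lower and Top2a higher. Beside them, Etv1 and the endothelial gene Pecam1 rose, each losing its call without E11 plate 1, E11 plate 2 or E13 plate 2. The Pecam1 call was also lost in wells with Pou4f1 only. Endothelial and mesenchymal genes summed to 15.5 to 325 CPM at E11 and E12 and 237 to 727 CPM at E13, and their part in the levels at E13 was not tested.

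At E11 and E12 the families were found in the same wells, where 476 of the 485 wells with a Tfap2 count also held an Onecut count (98.1%). Of the 925 Onecut wells, 476 held Tfap2 (51.5%). That share moves with depth: at 4000 UMIs it was 108 of 281, 116 of 308 and 57 of 256 wells on the 3 plates, and as sequenced 90, 102 and 39 of the Tfap2 wells held 3 Tfap2 counts or more. Of the 945 kept wells, 449 held Onecut alone, 9 held Tfap2 alone and 11 held neither. On E11 plate 1, 306 of 309 wells held Onecut, 176 held Tfap2 and 174 held both. On E11 plate 2 these numbers were 338, 181 and 177 of 345, and on the E12 plate 281, 128 and 125 of 291. With Onecut in nearly every well, the number with both hardly differed from the product of the shares: observed over expected was 0.998, 0.998 and 1.01, a ratio that has little room to move at such shares. At E13, where Onecut was in fewer wells, it was 1.15 on both plates, from 26 wells of 153 and 44 wells of 137, and 0.932 and 1.62 once wells were thinned to 4000 UMIs. Of the Tfap2 wells, 2 of 28 on E13 plate 1 and 11 of 55 on plate 2 held Tfap2 alone, and the order was the opposite in thinned wells, with 4 of 12 and 6 of 33. Later plates and those of the second set had 1 to 9 Tfap2 wells each, with no steady direction. Onecut was in 4 of 8 such wells on E18 plate 1 (observed over expected 1.03). On the second set it was in 2 of 9 on left plate 1 (0.459) and 5 of 6 on right plate 1 (1.49).

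**Figure D2:**
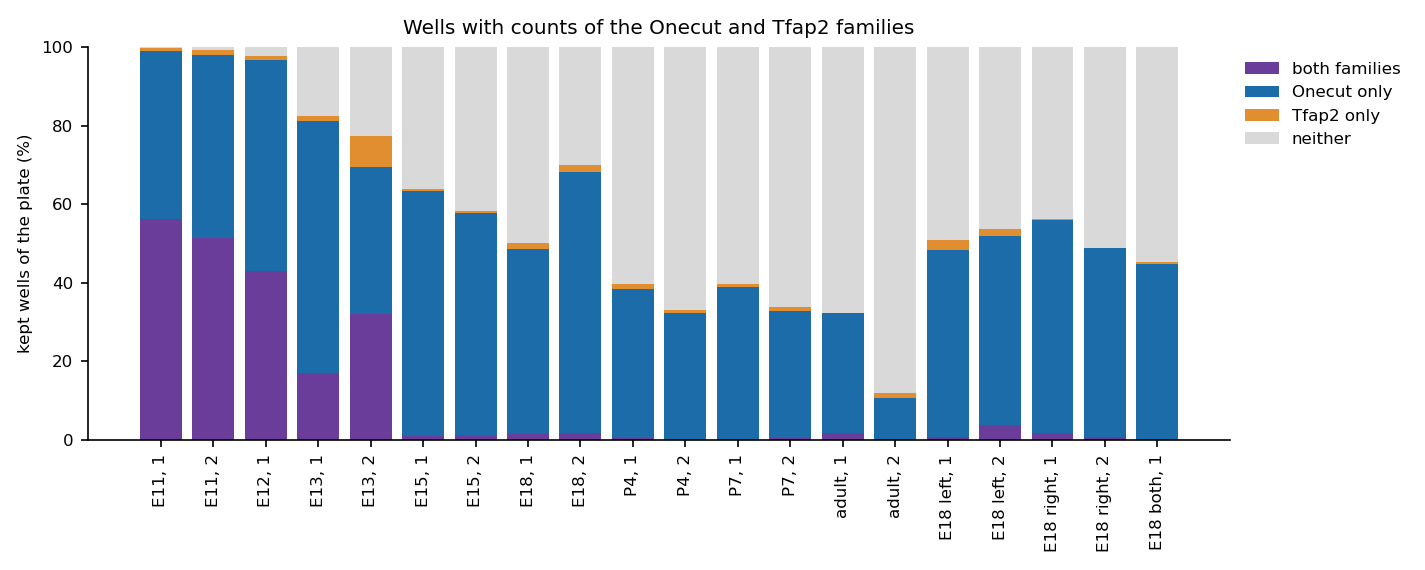
Share of the kept wells of each plate with counts of both families, of Onecut alone, of Tfap2 alone or of neither, in percent. About 1 in 2 wells holds both families at E11, a thin band of Tfap2 alone is visible mainly on E13 plate 2, and from E15 on nearly all wells hold Onecut alone or neither.

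Pairs of single genes were counted in the same way. Of the 206 wells with Tfap2a at E11 and E12, 179 held Tfap2b (86.9%), and 39.1% of the 458 Tfap2b wells held Tfap2a. The number with both was 1.66, 1.80 and 1.82 times the product of the shares on the 3 plates, and 2.52, 2.62 and 3.25 times after thinning. On E13 plate 2, 13 of 48 Tfap2a wells held Tfap2b (27.1%) and 13 of 20 Tfap2b wells held Tfap2a (65.0%), 1.86 times the product of the shares. Over wells of a plate, Pearson's r of the depth-scaled log values ran from 0.52 to 0.79 for Tfap2a with Tfap2b, 0.44 to 0.58 for Onecut2 with Onecut3, 0.26 to 0.44 for Onecut1 with Onecut2 and 0.20 to 0.31 for Onecut1 with Onecut3. Across families, Onecut1 with Tfap2b gave 0.07 to 0.30, Onecut2 with Tfap2b 0.15 to 0.22 and Onecut3 with Tfap2b -0.18 to -0.10, so the ranges within and across families overlap. Wells of a plate share their library and both genes of a pair their well's depth, so these values are descriptions.

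Onecut levels were also set side by side in wells with and without Tfap2 at E11 and E12. Onecut2 was at 3207 against 2449 CPM, 3076 against 2795 CPM and 1525 against 1345 CPM on the 3 plates. Onecut1 was at 230 against 155, 225 against 197 and 156 against 147 CPM. Onecut3 was at 450 against 380, 349 against 393 and 249 against 214 CPM. Onecut2 and Onecut1 were thus higher in the Tfap2 wells on each plate, by 0.08 to 0.57 on the log2 scale, and Onecut3 differed in opposite directions on the E11 plates. On E13 plate 2 they differed by 1.26 for Onecut1 and 1.56 for Onecut2, while Onecut3 had 4 counts in the Tfap2 wells and 2 in the others, and on E13 plate 1 they were 0.44 for Onecut1, 0.39 for Onecut2 and -1.14 for Onecut3.

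Wells of a plate were then split into 3 equal groups by the summed share of the neuron genes, at 4000 UMIs each. In the lowest, middle and highest group of E11 plate 1, Onecut was seen in 86.7%, 100% and 100% of wells and Tfap2 in 22.4%, 38.8% and 51.0%. On E11 plate 2 these shares were 90.6%, 100% and 100% for Onecut and 21.7%, 34.0% and 55.7% for Tfap2. On the E12 plate Onecut was in 85.7%, 98.9% and 96.7% of wells, and Tfap2 in 26.4%, 16.5% and 23.1%, with no order of the groups. On E13 plate 2 Onecut was in 19.0%, 64.3% and 68.3% and Tfap2 in 7.1%, 42.9% and 29.3%, while on E13 plate 1 Tfap2 had its lowest share, 2.6%, in the highest group. At E11 the share of wells with each family was thus lowest in the group with the fewest neuron transcripts, which on the E12 plate held for Onecut and not for Tfap2. The genes whose levels followed each member most closely over the wells were neuronal for Onecut2, with Ina, an intermediate filament gene (lowest within-plate r 0.61), Dpysl3 and Stmn2. For Onecut3 they were Atp8a1 (0.50), Tubb2a and Slc35f1, for Tfap2a Tfap2b (0.52) and Shox2 (0.36), and for Tfap2b Tfap2a, Reln (0.47) and Shox2.

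The wells of each family alone were compared over the genes that had no part in defining them, within plates. In the 449 Onecut-only wells against the 9 Tfap2-only wells, 309 of 9616 genes (3.21%) passed edgeR's test, 271 higher with Onecut and 38 lower, and the median log2 difference over all genes was 0.77. Of the neuron list 9 of 10 were higher in Onecut wells and 0 lower, with Gap43 3.42 ± 0.46 and Stmn2 3.16 ± 0.44 higher on the log2 scale. So were 4 of 8 tested habenula genes, with Pou4f1 at 777 ± 132 against 36.5 ± 63.1 CPM (SD, n = 3 plates; log2 difference 5.14 ± 0.75, adjusted p = 5.59e-09), and 2 of 5 tested thalamic neuron genes, Tcf7l2 and Lhx9, with 0 lower, whose calls were lost with DESeq2 and without E11 plate 1. Of the progenitor genes Hes1, Hes5 and Fabp7 were lower with Onecut and 0 higher, Hes1 at 39.6 ± 29.1 against 566 ± 279 CPM (adjusted p = 6.19e-05). Sox3 and Gli3, factors of neural progenitors, were lower as well. So were the collagen genes Col1a2 and Col3a1, 2 of the 4 tested vascular and mesenchymal genes. Col1a2 had 56, 0 and 0 counts in the Tfap2-only wells of E11 plates 1 and 2 and E12, against 49, 4 and 112 in the Onecut-only wells (log2 difference -3.70 ± 0.89, adjusted p = 0.00273), so the call rests on E11 plate 1, DESeq2 did not make it, and the part of such cells in the other differences was not tested. Without the E12 plate each of these calls was lost. Those of Fabp7 and Sox3 were also lost without either E11 plate and with no filter on low counts, that of Fabp7 also with the wells of highest counts left out, and those of Hes5 and Gli3 without E11 plate 2. The 9 wells were 2, 4 and 3 per plate and shallower, with a median of 4455 to 9254 counts against 11385 to 14145. A Tfap2-only well must lack Onecut2, which 95.2% to 98.1% of wells on these plates held. Onecut2 also followed neuron genes such as Stmn2 over wells. In these differences the presence of Tfap2, the lack of Onecut, the lower depth and the fewer neuron transcripts cannot be told apart. The wells with neither family were not compared. The calls of edgeR numbered 0 without the E12 plate (788 at an unadjusted p under 0.05; DESeq2 on all 3 plates called 118) and 1 where at least 2 counts marked a well, which left 2 Tfap2-only wells. With that marking Fabp7 (8.01) and Gli3 (7.57) took the opposite sign on the log2 scale (edgeR, adjusted p = 0.837 each).

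Because so few wells held Tfap2 alone, the 485 wells with Tfap2 were set against the 460 without, a comparison added after the sharing of wells had been seen. It passed for 101 of 12116 genes (0.834%), 68 higher and 33 lower in Tfap2 wells. Reln, which encodes the secreted glycoprotein reelin, was at 114.5 against 42.3 CPM and 117.8 against 47.1 CPM on the E11 plates and at 268 against 63.3 CPM at E12, a log2 difference of 1.68 ± 0.13 (SE, adjusted p = 0.000264). The heparan sulfate sulfotransferase gene Hs3st5 was at 47.4 against 13.3, 57.6 against 27.4 and 42.6 against 15.5 CPM (1.42 ± 0.17, adjusted p = 0.00262), and Mab21l1 at 41.0 against 9.84, 56.9 against 21.0 and 14.8 against 7.76 CPM (adjusted p = 0.00509). The same direction on all 3 plates was a condition for naming these genes. Pcp4l1, Gm30382, Cxcl12, Bnc2, Kcna4, Sertad4 and Galnt9 complete the 10 largest differences upward, at 1.39 to 2.24 on the log2 scale.

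Kctd15, which encodes an inhibitor of AP-2 activity, was the 1 gene called of the 5 tested Tfap2 relatives. It was at 66.8 against 29.0, 87.5 against 43.0 and 70.0 against 46.6 CPM in Tfap2 and other wells (0.93 ± 0.14, adjusted p = 0.00699). In the habenula list the axonal adhesion gene Cntn2 was higher in Tfap2 wells (0.50 ± 0.08, adjusted p = 0.00963) and Nr4a2 lower, at 51.9 against 142, 101 against 184 and 258 against 395 CPM (-0.90 ± 0.12, adjusted p = 0.00365). Olig3, a basic helix-loop-helix factor of thalamic progenitors, had 4, 0 and 1 counts in the Tfap2 wells of the 3 plates and 25, 14 and 13 in the others (adjusted p = 0.0121). Sox2ot, a transcript that spans Sox2, was lower at 7.95 against 21.2, 7.01 against 56.3 and 14.3 against 41.7 CPM (-1.98 ± 0.27, adjusted p = 0.0045), as were Adcy8, Chl1 and the mitotic genes Nusap1 and Cenpa. None of the 10 neuron and none of the 10 progenitor genes passed. Progenitor genes summed to 714 to 868 CPM in Tfap2 wells and 910 to 1115 CPM in the others, neuron genes to 12986 to 16754 and 12681 to 15092 CPM, and neural crest genes to 14.4 to 39.1 and 10.1 to 50.3 CPM. The inhibitory and pretectal genes summed to 24.2 against 149, 43.6 against 57.7 and 32.2 against 42.1 CPM on the 3 plates, lower in the Tfap2 wells of each, and the vascular and mesenchymal genes to 103 against 82.9, 14.0 against 17.4 and 182 against 460 CPM. The part of these cells in the comparison was not tested. The Tfap2 wells were deeper, with a median of 13550 to 16980 counts against 11261 to 14027.

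How many genes passed depended on the plates and on the pairing within plates. Calls numbered 12 without E11 plate 2, where 8 of the 101 remained and those of Kctd15, Nr4a2, Olig3, Cntn2, Mab21l1, Sox2ot, Adcy8 and Chl1 were lost, 88 without E11 plate 1, where that of Cntn2 was lost, and 382 without the E12 plate, and 0 without the plate as a block (286 at an unadjusted p under 0.05; DESeq2 with the block called 36). Reln and Hs3st5 passed under every alternative run except the fit without the block.

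**Figure D3:**
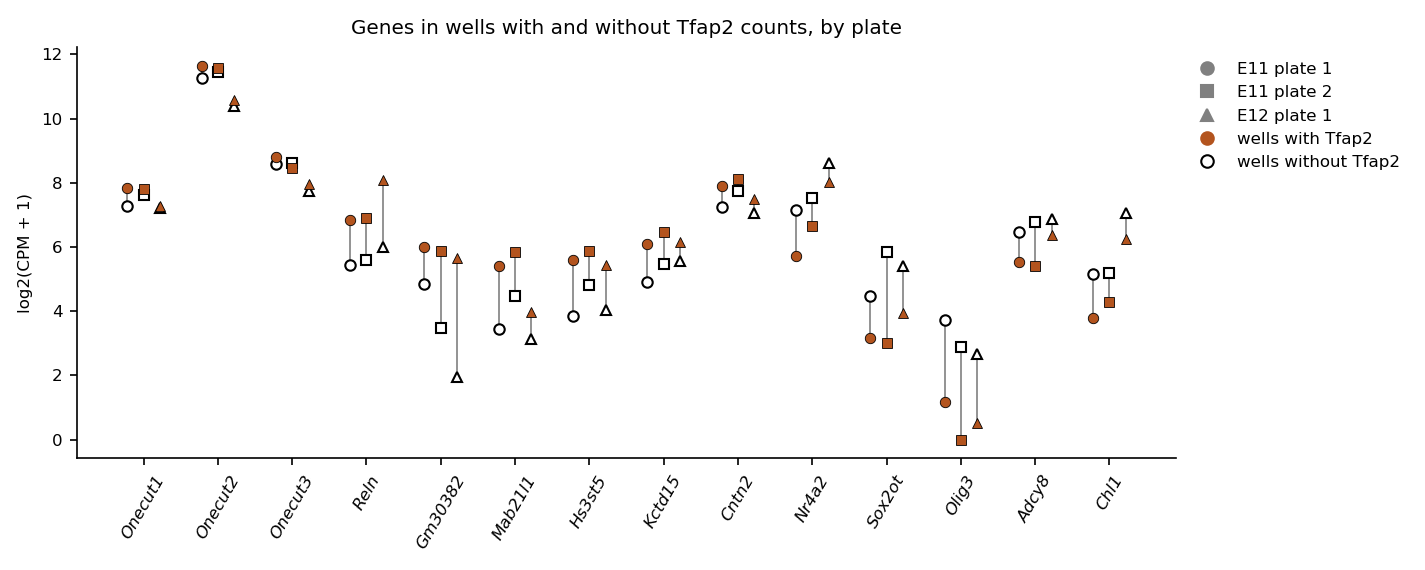
Levels, as log2(CPM + 1), of the Onecut genes and of genes from the comparison in wells with (filled) and without (open) Tfap2 counts, summed per plate; circles and squares are E11 plates 1 and 2 and triangles the E12 plate, joined by a line within a plate. Reln, Gm30382, Mab21l1 and Hs3st5 lie higher in Tfap2 wells on all 3 plates, Nr4a2, Sox2ot and Olig3 lower, and the Onecut genes lie close together.

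The levels of Onecut2 were then compared between wells with and without Onecut1. Onecut2 in wells with an Onecut1 count was higher than in other wells on every plate from E11 to E18: by 0.97 and 0.65 on the log2 scale at E11, 0.20 at E12, 0.85 and 1.96 at E13, 0.86 and 1.54 at E15, and 1.43 and 0.78 at E18. On the 5 plates of the second set it was higher by 1.11 to 1.86. At P4 it was lower, at 18.4 against 30.9 CPM and 23.8 against 29.1 CPM, and at P7 at 11.9 against 15.5 CPM and 13.6 against 17.9 CPM. These are log2 differences of -0.75, -0.29, -0.38 and -0.40 from 13 to 24 counts in the Onecut1 wells. In the adult the 7 Onecut1 wells of plate 1 held 23 Onecut2 counts, a difference of 3.03, and the 26 of plate 2 held 0. At a fixed 4000 UMIs per well the differences of the series to E18 were all positive, with 0.39 and 0.27 at E11. That of right plate 2 of the second set was -0.37 from 3 counts. At P4 and P7 the Onecut1 wells of a plate held 0 to 4 counts, too few to give a sign. The values there were 0.16 and 0.78 at P4 and 0.96 on P7 plate 2, with 0 counts on P7 plate 1. The number of wells with both genes was 1.28 and 1.27 times the product of the shares on the E13 plates, 1.39 on both E15 plates, and 1.88 and 1.27 at E18. At P4 and P7 together, 198 wells held Onecut1, 278 held Onecut2 and 45 held both, which was 1.04 to 1.19 times the product of the shares by plate.

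**Figure D4:**
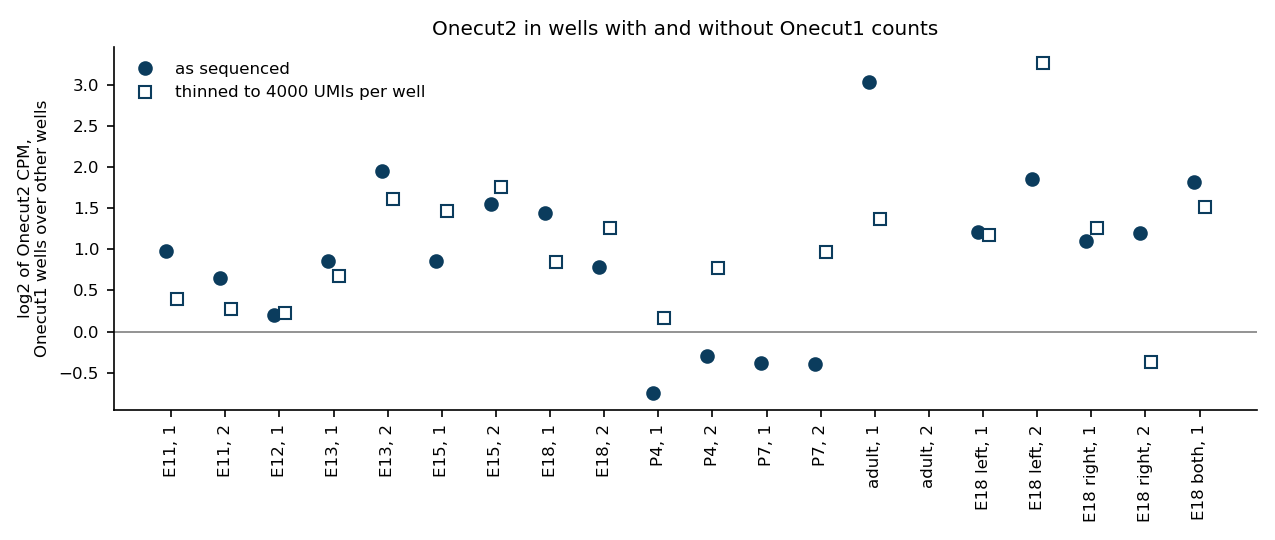
Log2 ratio of the Onecut2 level in wells with an Onecut1 count to that in wells without, per plate, as sequenced (filled circles) and at 4000 UMIs per well (open squares); points are missing where a class has 0 counts. As sequenced, the ratio lies above 0 on every plate to E18 and below 0 on the 4 plates of P4 and P7.

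Wells with 1 gene of the pair were compared at P4 and P7, also after this had been seen: 153 wells with Onecut1 and no Onecut2 against 233 with the reverse, over 4 plates. Wells were marked in total counts, and marking in spliced counts was not run for this pair of genes. In this comparison 938 of 10790 genes (8.69%) passed, 496 higher and 442 lower in Onecut1 wells. Wif1, a secreted inhibitor of Wnt signalling, was at 189 against 19.0, 256 against 20.2, 300 against 40.9 and 414 against 30.0 CPM on P4 plates 1 and 2 and P7 plates 1 and 2 (log2 difference 3.35 ± 0.15, adjusted p = 3.28e-10). Pde11a, a phosphodiesterase gene, was at 114 against 6.54, 120 against 3.94, 237 against 22.7 and 256 against 4.81 CPM (4.16 ± 0.24, adjusted p = 4.35e-09). The neuropeptide gene Cck was higher in Onecut1 wells by 3.39 ± 0.23. Gad1, which encodes a GABA-synthesising enzyme, was at 72.0 against 1.31, 8.18 against 0, 221 against 64.9 and 327 against 4.81 CPM (3.13 ± 0.43, adjusted p = 6.3e-05), where the P4 plate 2 value is 3 counts.

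Transcription factors lay on both sides. Nhlh2, a basic helix-loop-helix gene, was higher in Onecut1 wells at 594 to 729 CPM against 243 to 282 CPM (1.29 ± 0.09, adjusted p = 2.78e-08), and Insm1 by 2.52 ± 0.32. Its relative Nhlh1 was lower by 3.76 on the log2 scale, Ebf3 by 2.99 and Foxp2 by 2.84. Lmo3, a LIM-only gene, was at 53.1 to 232 CPM in Onecut1 wells and 341 to 590 CPM in Onecut2 wells (-2.14 ± 0.19, adjusted p = 5.51e-07), Nr4a2 at 304 to 562 and 889 to 1061 CPM (-1.17 ± 0.11) and Prox1 at 16.4 to 32.5 and 61.3 to 116 CPM (-1.79 ± 0.19). The habenula list was split, with 3 of 9 tested higher and 4 lower. Of 4 tested neurogenic intermediate genes Insm1 was higher, while Neurod1 (-0.90 ± 0.13) and Btg2 (-0.80 ± 0.23) were lower. In the neuron list 3 of 10 were higher (Nefl, Dcx and Stmn2) and 0 lower. Of 2 tested progenitor genes Sox2 was lower and 0 higher. The neuropeptide gene Sst was lower by 3.76 on the log2 scale, and its P4 plate 1 values, 35.3 against 41.8 CPM, were nearest to each other. Median depth was 23815 to 29277 counts in Onecut1 wells and 21321 to 29959 in Onecut2 wells. When wells were thinned before they were marked, 149 of 1584 tested genes were called, and 141 of them were calls given here in the same direction.

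The same classes at E18 on the second set, in another mouse line, held 82 and 267 wells over 5 plates, and 22 of 8829 genes (0.249%) passed, 11 in each direction. Of the genes above, Wif1 was again higher in Onecut1 wells (2.77 ± 0.23, adjusted p = 0.00516) and Lmo3 lower, at 154 against 306, 126 against 569, 119 against 508, 86.0 against 389 and 54.6 against 282 CPM on the left plates, then the right plates, then the plate of mixed sides (-1.91 ± 0.25, adjusted p = 0.0291). The potassium channel gene Kcng4 was at 92.9 against 14.3, 11.5 against 0, 154 against 14.7, 270 against 19.2 and 377 against 24.5 CPM (3.53 ± 0.26, adjusted p = 0.00168), and the calcium channel subunit gene Cacna2d1 at 17.8 to 122 against 381 to 782 CPM (-3.70 ± 0.50, adjusted p = 0.0291). Pde11a was higher by 2.58 ± 0.45 without passing (adjusted p = 0.0736), while Insm1 was at -0.07 ± 0.31. Of the 780 genes called at P4 and P7 and tested here, 562 (72.1%) had the same direction, against 53.5% of all 8610 genes tested in both, and 15 were called in both. Left plate 2 has 3 Onecut1-only wells. The number of calls was 359 without it, 1 without left plate 1, 2 without right plate 1, and 0 by edgeR without right plate 2 (377 at an unadjusted p under 0.05) or without the plate of both sides (383), where DESeq2 on all 5 plates called 98. Leaving out any plate but left plate 2 ended the call of Lmo3. Those of Wif1, Kcng4 and Cacna2d1 also ended without right plate 2 and without the plate of both sides. Only 1 of the 22 calls was kept without left plate 1 and only 2 without right plate 1. Wif1, Kcng4 and Cacna2d1 therefore did not all keep their calls there.

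**Figure D5:**
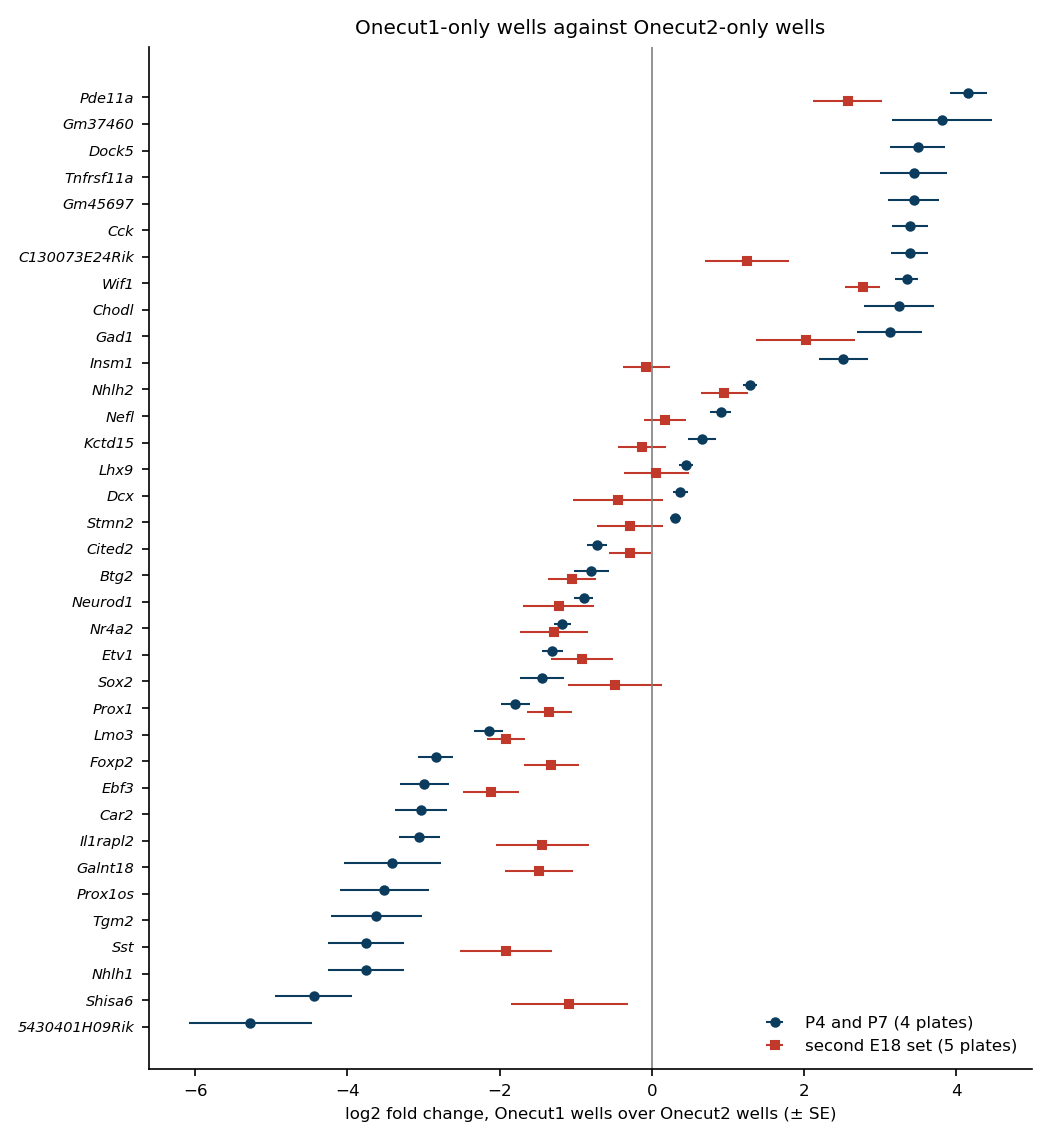
Log2 fold change (± SE) of named genes in wells with Onecut1 and no Onecut2 over wells with the reverse, at P4 and P7 (circles, 4 plates) and on the second set at E18 (squares, 5 plates); the genes shown passed an adjusted p of 0.05 at P4 and P7. Wif1 and Pde11a lie on the Onecut1 side and Lmo3 and Ebf3 on the Onecut2 side.

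Between left and right habenula at E18 no difference was detected in the 3 Onecut genes, with 2 plates a side. Onecut1 was at 50.2 and 87.2 CPM on the left plates and 71.2 and 67.8 CPM on the right, a log2 difference (right over left) of 0.03 ± 0.26 (SE). Onecut2 was at 77.6 and 80.8 CPM on the left and 75.5 and 64.1 CPM on the right (-0.20 ± 0.19), and Onecut3 at 4.73 and 0 CPM and at 5.43 and 1.73 CPM (0.34 ± 0.95). The right plates lay inside the range of the left plates for Onecut1 and below it for Onecut2. Tfap2a and Tfap2b, with 11 and 17 counts over all 5 plates, were too low to test. In this comparison 0 of 15489 genes (0%) passed edgeR's test, 182 had an unadjusted p under 0.05, and DESeq2 called 1, the globin pseudogene Hba-ps4. Globin transcripts moved with the side, Hbb-bs at 6513 ± 1076 CPM on the left and 696 ± 776 CPM on the right (SD, n = 2 each), which passed without left plate 2, right plate 1 or right plate 2, with no filter on low counts and with the replicate number as a block, but not otherwise, and their part in the other values was not tested. On the plate of both sides Onecut1 was at 51.7 CPM and Onecut2 at 72.6 CPM, while the E18 plates of the Brn3a-tauLacZ line had 158.3 and 206.5 CPM of Onecut2. The sets differ in mouse line and were deposited as separate tables, so the difference was not tested.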

How the data were processed

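The members and the gene lists were chosen with earlier results of these data known. The authors deposited expected counts per gene and well, which are UMI counts corrected for collisions among 4096 possible UMIs: every value became whole, within 1e-06, when the correction was undone. Reads were aligned with STAR 2.5.3a to mm10, and Trim Galore was used, per the submitters' processing notes. For the counting program, the annotation and the use of strand nothing is stated in the labels, so genes that overlap another gene, such as Reln, Sox2ot, Mab21l1, Cux1, Pax6 and Kctd15, have uncertain counts. Gene IDs were matched to GENCODE M21.

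Wells with at least 1000 counts, at least 500 genes and at most 20% mitochondrial counts were kept, and 92 spike-in rows were left out. Each plate's kept wells, or its wells of a class, were summed and rounded. The planned tests assumed plain counts, and the rounded sums of expected counts were used in their place. Tests were edgeR's quasi-likelihood test (4.0.16, with limma 3.58.1, R 4.3.3) over all genes that passed its filter, with Benjamini-Hochberg adjustment and a threshold of 0.05. Stage contrasts were fitted on all plates of the series but the E12 plate. Comparisons of well classes had the plate as a block and left out the genes that define the classes and those overlapping them. DESeq2 1.42.0 was an alternative. Thinned wells hold 4000 UMIs drawn at random, and shallower wells were left out. Other values were computed with Python 3.11.15, numpy 2.4.6, scipy 1.17.1 and pandas 2.3.3, and figures with matplotlib 3.10.9.

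Genes named were the members, up to 4 per list and comparison with the largest change past the threshold (or, with none, the 2 with the highest mean), and in comparisons of wells the 10 per direction with the largest change at 10 CPM or more in the higher class and the same direction on every plate. Kctd15 and the genes of the second set beside P4 and P7 follow from the same lists. Hba-ps4 is in none of the lists and is named as the only gene that DESeq2 called between left and right. Not every gene that this rule names is reported here. Likeness over plates was taken over genes with a mean of at least 5 CPM, and likeness over wells over genes seen in at least 10% of wells of each E11 and E12 plate. The comparison of Tfap2 wells, both comparisons of Onecut1 with Onecut2 wells and the thinning of Onecut2 in Onecut1 wells were added after seeing the data. No doublet caller was run, and 82 and 10 wells above 3 times their plate's median were left out as an alternative. Well barcodes come from 1 set, with 380 well numbers on all 20 plates. On simulated data, 33% of 2-fold changes were recovered for E11 to P4 (16016 genes), 45% for Tfap2 wells (12211 genes) and 71% for Onecut1 and Onecut2 wells (10813 genes), and 100% of 4-fold changes in each. False calls numbered 4, 4 and 9. The simulation gave every gene the same spread beyond counting error and changed only genes with enough expected counts in the smallest library. These shares therefore need not hold for the measured genes.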

Additional observations from a re-analysis of the deposited data

Results flagged for a closer look

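The difference in Onecut2 level between wells with and without an Onecut1 count had opposite signs at E18 and P4 of the series: on both E18 plates Onecut2 was higher in the Onecut1 wells, by 1.43 and 0.78 on the log2 scale, and on both P4 plates it was lower, by log2 differences of -0.75 and -0.29. The means were 1.63 apart. This difference between the stages was not tested. With 4000 UMIs per well the P4 differences were 0.16 and 0.78, from 2 and 1 Onecut2 counts in the Onecut1 wells.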

How the results depend on the processing

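All 5 members had their highest stage mean at E11 under each alternative run. They were picked for high levels in the youngest samples, so this count does not test that pattern. Of 350 alternative values for the levels of the members by stage, 293 counted as unchanged and 57 as moved. The margin was small for Tfap2a, whose E13 plates were at 15.3 and 53.6 CPM against an E11 mean of 57.0 CPM. Replicate numbers were not taken to pair the plates: of 21 pairs of stages, 3 had deviations correlated above 0.1 (range -0.38 to 0.27). Left with right gave 0.24, from too few plates to settle whether their numbers pair. From E11 to P4, 4244 calls became 8777 with the 4 plates alone, 1535 to 1875 on leaving out 1 plate, and 3858 with the replicate number as a block. From E11 to E13, 253 became 1715 with no filter, 932 with DESeq2, 28 to 482 on leaving out 1 plate and 196 with the block. Left against right, 0 became 37 with no filter, 1 with DESeq2, 6 with the block, Hbb-bs (log2 -3.92) and Hba-a1 (-4.34) among them, and 18 to 39 on leaving out 1 plate.

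Onecut against Tfap2 wells, 309 became 118 with DESeq2, 0 to 142 without 1 plate, 1 at 2 counts or more, 466 when marked in spliced counts and 384 without the plate block. At 2 counts or more Fabp7 (8.01), Nckap5 (7.12), Adgrv1 (8.23), Wls (8.06) and Gli3 (7.57) reversed on the log2 scale (adjusted p = 0.837 each). In Tfap2 wells, 101 became 404 with no filter, 36 with DESeq2, 0 without the plate block, 12 to 382 without 1 plate, 560 at 3 counts or more and 164 when thinned (of 8589 tested, not 12116), and Fn1 reversed to 0.10 (adjusted p = 0.938) when high wells were left out. Onecut1 against Onecut2 wells at P4 and P7, 938 became 619 with DESeq2, 149 when thinned (of 1584 genes tested, not 10790), 588 to 861 without 1 plate and 634 without the block. On the second set, 22 became 295 with no filter, 98 with DESeq2, 13 without the block, 0 to 359 without 1 plate, 370 at 2 counts or more, 140 when thinned (of 2021 tested, not 8829) and 199 in wells of the upper range of the neuron list.

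Observed over expected sharing of wells at E11 (0.998) was 1.03 at 2 counts or more, 1.00 in spliced counts, 1.02 thinned, 0.995 at 2000 counts or more, 1.00 in the upper range of the neuron list and 1.00 in Pou4f1 wells. At E12 (1.01) it was 1.07 at 2 counts or more. At E13 (1.15) it was 1.27 at 2 counts or more, 1.12 in spliced counts, 1.28 thinned, 1.10 at 2000 counts or more and 1.10 in Pou4f1 wells. Onecut against Tfap2 wells could not be run in the upper range of the neuron list, which held 0 Tfap2-only wells. Intervals and limits cover counting error only.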
